A study of Saccharomyces cerevisiae with 48 samples.

Results

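Where does the rrm3 mutation change the placement of RNA polymerase II in S phase, and does it do so in the same places when SEN1 is also mutated? The 4 libraries described here are the Rpb1 chromatin immunoprecipitates from S-phase budding yeast, out of 48 libraries in the series and out of 24 that come with a peak list. They form 2 pairs whose genotype labels differ only in rrm3. The first pair sets rrm3 against wild type, and the second sets the double mutant sen1rrm3 against sen1. All 4 cultures were grown to log phase in YPG, arrested in G1 with alpha-factor in YPD, released at 23 °C and collected 45 to 50 min later. Chromatin was precipitated with the Rpb1 antibody 8WG16. The labels give the genotypes by name alone, so how the rrm3 and sen1 alleles were made is not stated here. Each strain has 1 library. No difference below has a replicate check or a p-value, and each one compares 2 libraries.

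Rpb1 is the largest subunit of RNA polymerase II, the enzyme that transcribes protein-coding genes and most small nucleolar RNA (snoRNA) genes. Rrm3 is a DNA helicase that travels with replication forks and helps them past tightly bound protein, as at tRNA genes, the ribosomal DNA, telomeres and centromeres. Sen1 is a helicase that, together with Nrd1 and Nab3, ends the transcription of snoRNAs and other short non-coding RNAs. In cells without normal Sen1, polymerase runs on past the ends of such genes.

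The measure used throughout is gene cover, the percentage of a gene's body that lies under the deposited peaks of a library. The lists of wild type, rrm3, sen1 and sen1rrm3 held 2037, 2039, 2136 and 2016 peaks, and covered 18.9%, 18.9%, 20.2% and 19.4% of the 12.1 Mb nuclear genome. Mean cover over the 6002 protein-coding genes was 23.0%, 22.8%, 24.6% and 23.0% in the same order. The sen1 list was thus longer than that of sen1rrm3, and read depth is unknown, so that list length and strain cannot be told apart in that pair. Counts over all genes that change by more than 1.5 times when the lists of a pair are trimmed to the same covered length, dropping the lowest-scored peaks first, are given with both values here or in the closing part on processing. The 137 ribosomal protein genes, the strongest polymerase II targets in growing yeast, had a mean cover of 99.2% or 99.3% in each of the 4 lists, and the 10 histone genes between 98.5% and 99.0%.

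The RRM3 gene itself was examined first. RRM3 had a cover of 14.9% in wild type, 51.0% in sen1 and 0% in each of the 2 lists from rrm3 strains. The peaks were at chromosome VIII 170875 to 171197 in wild type and 171021 to 172127 in sen1. Both lists from rrm3 strains instead held a peak just beside the gene. It lay on the side of SLT2, which encodes the MAP kinase of the cell wall integrity pathway, and touched SLT2. This peak ran from 170304 to 170729 in rrm3 and from 170335 to 170729 in sen1rrm3, so that its end facing RRM3 was at the same base in both. Neither the wild-type nor the sen1 list had a peak there. By the deposited score, which ranks peaks within a list, it stood at percentile 77.7 of the rrm3 list and 76.1 of the sen1rrm3 list, the highest rank of any peak in either list that had no partner in the other list of its pair. SEN1 was nearly free of peaks in all 4 lists, with a cover of 0% in wild type and rrm3 and 0.120% in sen1 and sen1rrm3, so it gives no check of the sen1 label.

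At the level of base pairs the pairs that differ in rrm3 were the most alike. Of the base pairs covered in either list, 0.834 were shared between wild type and rrm3 and 0.821 between sen1 and sen1rrm3, while each of the 4 pairings across SEN1 status shared between 0.653 and 0.684. Peaks in all 4 lists covered 1705 kb. Sequence under peaks in sen1 and sen1rrm3 but in neither other list came to 335.3 kb. By comparison, 19.96 kb lay under peaks in rrm3 and sen1rrm3 alone, and 22.94 kb in wild type and sen1 alone. The pairings that follow neither genotype were not far below, with 15.39 kb in wild type and sen1rrm3 alone and 14.94 kb in rrm3 and sen1 alone.

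Peaks that had no partner across rrm3 status were narrow and low in rank. A peak counted as partnered when it shared at least 1 bp with a peak of the other list. Of the wild-type peaks, 218 had no partner in rrm3 (10.7%, exact 95% binomial interval 9.39 to 12.1), and of the rrm3 peaks 192 had none in wild type (9.42%, interval 8.18 to 10.8). Of the sen1 peaks 251 had no partner in sen1rrm3 (11.8%, interval 10.4 to 13.2), against 159 in the other direction (7.89%, interval 6.75 to 9.15). With the sen1 list trimmed to the covered length of the sen1rrm3 list, these counts were 135 and 280, so their order in the sen1 background turned with list length. The median score percentile of the unpartnered peaks was between 9.32 and 13.95, and their median width between 269.5 and 311.5 bp. The intervals here and below cover counting error only.

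Of all peaks, 18 were in both lists from rrm3 strains and touched no peak of the lists with intact RRM3, and 25 showed the reverse pattern. The first group included a peak over FLO9, a subtelomeric flocculin gene, at chromosome I 25528 to 25709 with identical ends in both lists. It also held peaks at DHH1, which encodes an RNA helicase of mRNA decay, and at NET1, which encodes a nucleolar protein. A further peak touched both TOM71 and ORC6. The cover of ORC6 was 13.15% in rrm3 and 7.72% in sen1rrm3, and 0% in wild type and sen1. Among the second group were peaks at DBF4, POL1 and RTT107: DBF4 encodes the activating subunit of the Cdc7 kinase that fires origins, POL1 the catalytic subunit of DNA polymerase alpha, and RTT107 a scaffold for repair at damaged forks. Peaks at REB1, MSA2, SPT21, BUR6, CDC42, DUO1, SPC29 and RRM3 were in the same group. These genes were picked out after their values were seen. The median score percentile in the first list of each couple was 21.2 for the 18 peaks and 14.6 for the 25.

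In the wild-type background few genes crossed from no cover to at least 50% of the body or back. With rrm3, 8 genes were gained (at least 50% in rrm3 and 0% in wild type), or 0.133% of all genes, and 13 were lost by the reverse rule, or 0.217%. ATO3, which encodes a transporter linked to ammonium export, had a cover of 0%, 96.5%, 94.2% and 77.9% in wild type, rrm3, sen1 and sen1rrm3, the order used for every set of 4 values below. It was the gained gene with the most base pairs under peaks, and only the wild-type list lacked it. TOM6, a subunit of the mitochondrial outer-membrane translocase, had 0%, 100%, 0% and 11.8%. MET14, which encodes the kinase of sulphate assimilation, had 57.5% in rrm3 and 0% in the other 3 lists. ERG28, a scaffold of sterol synthesis, had 69.1% in rrm3 and SPC1, a subunit of the signal peptidase, 66.3%, each with 0% in the other 3 lists. Outside ATO3 and the small INO80 subunit gene IES5, the gained genes had at most 11.8% cover in the lists with altered sen1.

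Among the 13 lost genes, DIC1 encodes the mitochondrial dicarboxylate carrier and had a cover of 94.3%, 0%, 100% and 98.7%. ZRT1, the high-affinity zinc transporter gene, had 79.8%, 0%, 32.2% and 59.0%. IZH1, which encodes a membrane protein of zinc homeostasis, had 56.3%, 0%, 87.9% and 58.8%. These 3 genes were bare in rrm3 and covered by at least 58.8% in the double mutant. SPC42, a structural gene of the spindle pole body, had 55.8% in wild type and 0% in the other 3 lists. MSA2, which encodes a partner of the factors that switch on G1 transcription, and BUR6, a subunit of the transcriptional repressor NC2, were bare in both lists from rrm3 strains.

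A finer rule counted genes whose cover differed by at least 25 percentage points, whatever the level. Against wild type, 84 genes were higher with rrm3 (1.40%) and 140 lower (2.33%). The gene with the most added base pairs was MET10, a subunit of sulphite reductase, with 11.2% in wild type and 68.2% in rrm3. MET13, which encodes a reductase of methionine synthesis, had 55.6% and 100%. Over the 31 genes of sulphur amino acid metabolism, mean cover was 38.4% in wild type and 45.5% in rrm3, with 3 members at least 25 points higher, none lower, 12 higher by any amount and 2 lower. For sen1 and sen1rrm3 the same list had 44.7% and 44.9%, with no member 25 points apart. With only the higher-scoring 50% of each list the sulphur means were 29.6% and 30.8%, and 35.7% and 29.6%, so that the gap in the wild-type background nearly closed and one opened on sen1. The 26 ergosterol genes averaged 61.3% in wild type and 69.2% in rrm3, with 4 members at least 25 points higher (ERG7, ERG8, ERG28 and ERG29) and none lower. In sen1 and sen1rrm3 it was 63.6% and 60.0%, with 1 member higher and 2 lower, among them ERG4, the last enzyme of the pathway, at 95.2% and 38.6%. By the higher-scoring 50% the ergosterol means were 48.2% and 58.2%, and 45.1% and 46.3%, with the sign turned on sen1. Over all genes, 1213 (20.2%) were higher by any amount with rrm3 in the wild-type background and 915 (15.2%) lower. Genes without cover in any list cannot differ. Some cover was present at 21 of the 31 sulphur genes and 23 of the 26 ergosterol genes, but at only 2969 of all 6002 genes.

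On the lower side in the wild-type background, IKI3, a subunit of Elongator, lost the most base pairs, with 71.5% in wild type and 32.9% in rrm3. RTT107 had 53.5% and 7.03%, and ATR1, a multidrug efflux gene, 83.3% and 6.20%. The 11 genes of the zinc regulon had a mean of 39.1% in wild type and 25.0% in rrm3 with 2 members, ZRT1 and IZH1, at least 25 points lower. Their mean was 32.4% in sen1 and 34.1% in sen1rrm3, and 25.8% and 34.1% at equal covered length. With only the higher-scoring 50% of each list the zinc means were 8.33% in wild type and 7.64% in rrm3, with no member 25 points apart. PHO8, the vacuolar phosphatase gene, had 70.5%, 16.9%, 19.5% and 29.3%.

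In the sen1 background, 13 genes were gained in sen1rrm3 against sen1 (0.217% of all genes) and 37 were lost (0.616%). By the 25-point rule 78 genes were higher (1.30%) and 208 lower (3.47%). The balance again depended on list length. With lists of equal covered length the counts were 37 gained and 28 lost, and 137 higher and 162 lower. Of the 13 gained genes, 10 had at least 50% cover in wild type. That the double mutant was closer to wild type than sen1 at these 10 follows from the rule for gained genes, which asks for 0% in sen1.

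**Figure D1:**
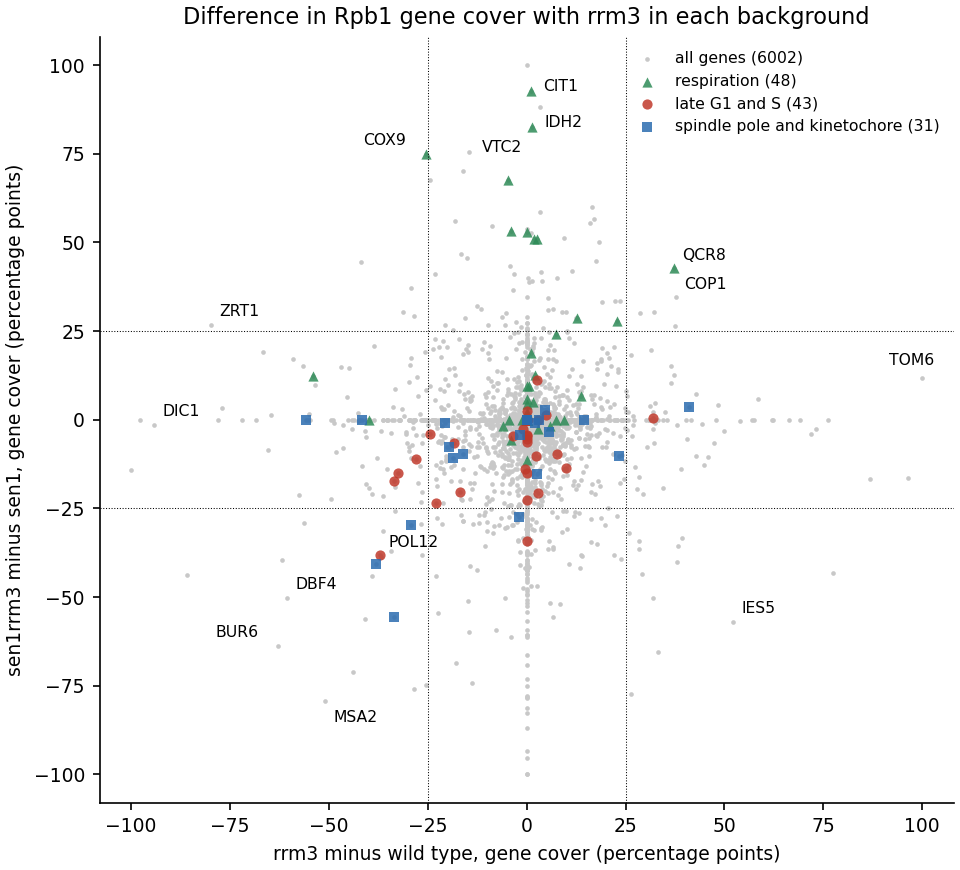
Each point is 1 protein-coding gene. The horizontal axis gives the difference in gene cover between rrm3 and wild type and the vertical axis that between sen1rrm3 and sen1, both in percentage points, with dotted lines at 25 points and 3 gene lists in colour. Respiration genes (triangles) reach up to 92.7 points on the vertical axis near 0 on the horizontal one, and DBF4, POL12, MSA2 and BUR6 lie at the lower left.

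Of the 13 genes gained in the sen1 background, 6 belong to respiration, the oxidation of fuel in mitochondria, as do 11 of the 78 higher by 25 points. The list of 48 respiration genes, which was put together after the gained genes had been seen and so is not independent of them, had mean covers of 60.2%, 60.0%, 41.6% and 56.5%. Between sen1 and sen1rrm3, 11 of its 48 members were at least 25 points higher in the double mutant and none was lower by as much. By any amount, 24 were higher and 5 lower, beside 770 (12.8%) higher and 1434 (23.9%) lower over all genes. Some cover in any list was present at 40 of the 48 members but only 2969 of all 6002 genes, and genes without cover cannot differ. With lists of equal covered length 14 members were at least 25 points higher, all of the 11 among them.

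CIT1, which encodes mitochondrial citrate synthase, had a cover of 98.9%, 100%, 0% and 92.7%. IDH2, a subunit of isocitrate dehydrogenase, had 18.6%, 19.8%, 0% and 82.4%. Both were bare in sen1, and IDH2 had far more cover in the double mutant than in wild type. Of the subunits of complex III, QCR7 had 100%, 100%, 47.1% and 100%, and COR1 had 93.9%, 96.5%, 20.7% and 71.8%. QCR10, of the same complex, had 55.9%, 51.2%, 0% and 67.7%. COX9, a subunit of cytochrome c oxidase, had 58.3%, 32.8%, 0% and 75.0%, and ATP4, of the ATP synthase, 71.6%, 73.5%, 0% and 50.9%. INH1, the inhibitor of that ATPase, had 42.6%, 38.8%, 0% and 53.1%.

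Other members of the list did not follow. COX12 had 75.4%, 84.9%, 0% and 0%. SDH2, a subunit of succinate dehydrogenase, had 39.8% in wild type and 0% in the other 3 lists. MDH1, mitochondrial malate dehydrogenase, had 79.1%, 25.0%, 25.4% and 37.6%, low in all 3 mutants. From wild type to rrm3, 1 member was at least 25 points higher (QCR8) and 3 lower, and with only the higher-scoring 50% of each list 6 were lower, with means of 52.9% and 44.1%.

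**Figure D2:**
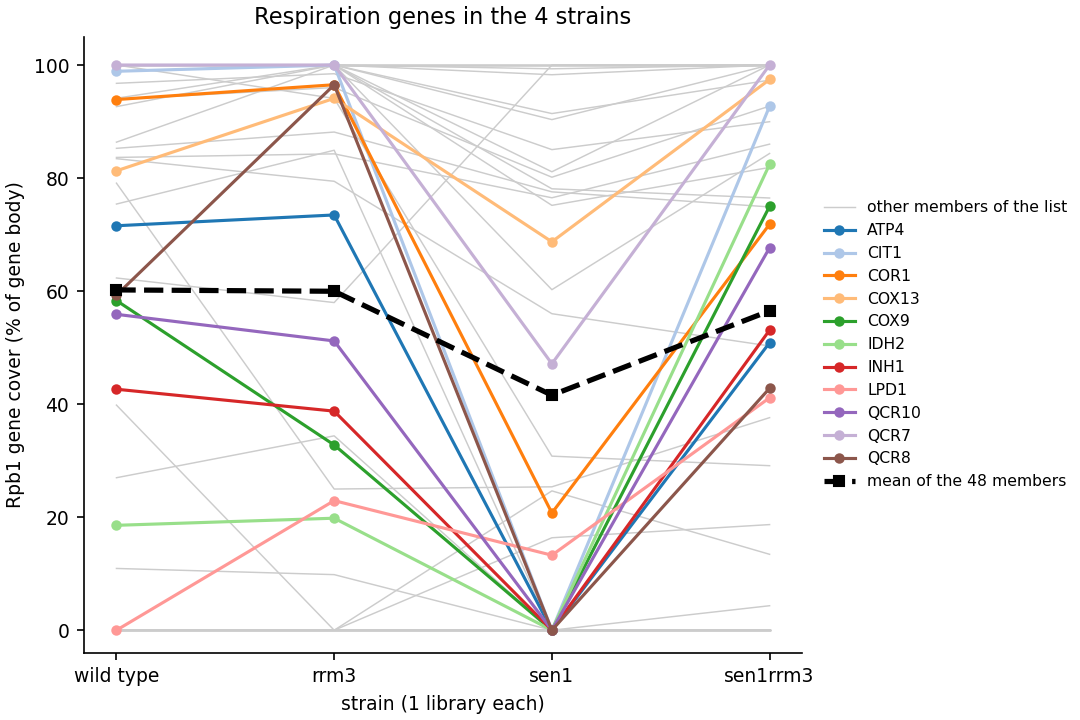
Gene cover of the 48 respiration genes in the 4 strains, with 1 line for each gene. The 11 members at least 25 points higher in sen1rrm3 than in sen1 are coloured, and the dashed black line is the mean, which was 60.2%, 60.0%, 41.6% and 56.5% from left to right.

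Genes outside respiration shared this course. RPM2, which encodes a protein of mitochondrial RNase P, had 98.2%, 82.2%, 0% and 70.2%. OPT1, an oligopeptide transporter gene, had 93.8%, 97.3%, 0% and 58.7%. ARG1, an enzyme of arginine synthesis, had 88.9%, 92.3%, 0% and 88.1%. Among phosphate genes, VTC2, of polyphosphate synthesis, had 93.1%, 78.6%, 13.6% and 89.2%, and PHO81, the inhibitor of the phosphate-responsive kinase, 71.5%, 47.0%, 12.3% and 79.8%. Over the 24 phosphate genes mean cover was 39.2% in sen1 and 45.1% in sen1rrm3, with 3 members at least 25 points higher and 1 lower. With only the higher-scoring 50% the means were 37.1% and 37.6%, with 1 member each way.

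Read from the other end, 43 genes (0.716%) were lost in sen1 against wild type, with at least 50% cover in wild type and 0% in sen1. In the double mutant 18 of them (41.9%) had at least 25% cover and 10 at least 50%, while 19 remained at 0%. Of the 43, 6 belonged to the respiration list, and 4 of these had at least 50% in the double mutant. Because a gene at 0% in sen1 can only be higher elsewhere, the reverse set was counted as well. Of the 38 genes lost in sen1rrm3 against rrm3, 16 (42.1%) were at least 25 points higher in sen1. The share regained was about the same from either side, so over all 43 genes the counts show no more return in one direction than in the other.

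Few genes were lower with rrm3 in both backgrounds. The pairs share no library. By the 25-point rule 21 genes were lower in both (0.350% of all genes), which is 15.0% of the list in the wild-type background and 10.1% of the list in the sen1 background. Just 5 genes were higher in both (0.0833%), or 5.95% and 6.41% of the lists. By the stricter rule 2 genes, MSA2 and BUR6, were lost in both (0.0333%) and none gained in both. Trimmed to equal covered length, 14 genes were lower in both, all among the 21, and 10 were higher. Opposite differences were about as rare, with 12 genes higher on wild type and lower on sen1 (0.200%) and 6 the other way (0.1000%).

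DBF4 had a cover of 70.2% and 9.69% in the first pair, and of 50.2% and 0% in the second. MSA2 had 51.0% and 0%, and 79.2% and 0%. POL12, the regulatory subunit of DNA polymerase alpha, had 43.4% and 6.33%, and 59.1% and 20.9%. CDC42, the GTPase that sets up bud polarity, had 43.9% and 0%, and 71.0% and 0%. These 4 genes were lower in each rrm3 library than in its partner, and 2 of them were bare in both.

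Spindle and kinetochore genes were in the same group. SPC29, a component of the spindle pole body, had 33.6% and 0%, and 55.6% and 0%. NNF1, of the MIND complex at the kinetochore, had 38.1% and 0%, and 40.8% and 0%. DUO1, of the DASH ring that couples kinetochores to microtubules, had 29.2% and 0%, and 29.7% and 0%. Other members of the 21 had no such role: PHS1 encodes a dehydratase of fatty acid elongation, ERO1 the thiol oxidase of the endoplasmic reticulum, HCR1 a translation initiation factor, RIO2 a kinase of ribosome maturation and PMT4 a mannosyltransferase. YER145C-A and LSM5 overlap on the chromosome, so their values are not independent. The 5 genes higher in both were MRX3, COP1, QCR8, ISA1 and ERG29. COP1, the alpha subunit of coatomer, had 46.1% and 83.9%, and 6.49% and 41.2%.

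**Figure D3:**
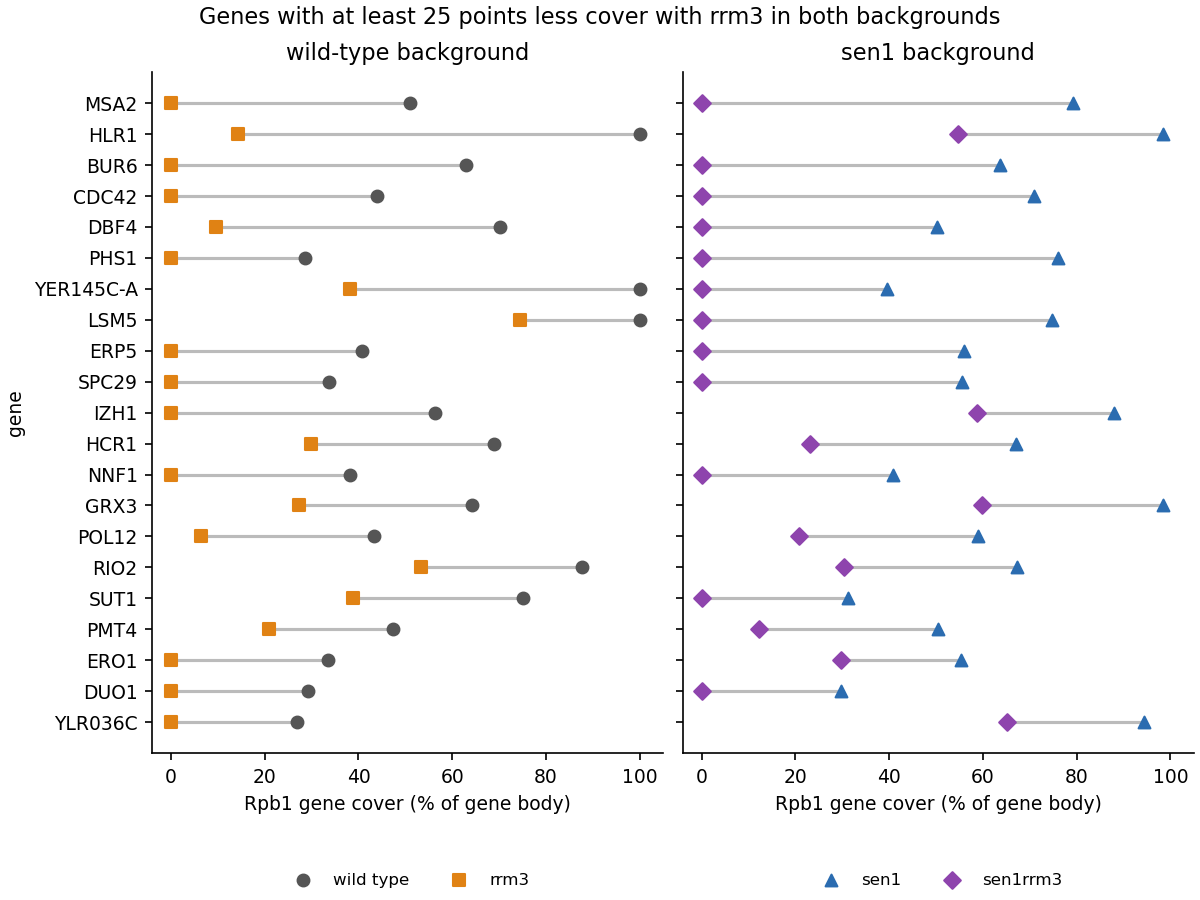
Gene cover of the 21 genes at least 25 percentage points lower with rrm3 in both backgrounds, with wild type and rrm3 on the left and sen1 and sen1rrm3 on the right. A grey bar joins the 2 values of a pair. In both panels MSA2, BUR6, CDC42, PHS1, ERP5, SPC29, NNF1 and DUO1 end at 0% in the rrm3 library.

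Lists of cell cycle genes were then read as a whole. The lists of 43 late G1 and S genes and of 31 spindle pole and kinetochore genes were put together after the genes above had been seen. Late G1 and S genes had mean covers of 53.5%, 49.9%, 58.1% and 51.4%. On wild type, 4 members were at least 25 points lower (POL1, POL12, TOS4 and ASF1), 1 was higher, and by any amount 11 were lower and 8 higher. Over all genes the shares were 2.33% lower and 1.40% higher by 25 points. On sen1, 2 of the 43 were at least 25 points lower, near the 3.47% of all genes. By any amount 22 were lower and 5 higher, where all genes had 23.9% lower and 12.8% higher. Genes without cover in any list cannot differ. Some cover was present at 36 of the 43 but only 2969 of all 6002 genes, so these shares are not on an equal footing. Trimmed to equal length, 21 were lower and 5 higher. With only the higher-scoring 50% of each list the means were 41.3%, 39.7%, 49.1% and 42.0%. By 25 points 1 member was then lower on wild type and 5 on sen1, and none was higher in either background.

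POL1 had a cover of 41.6%, 9.19%, 50.4% and 35.2%. TOS4, a gene regulator expressed in G1, had 42.8%, 9.32%, 55.1% and 37.8%. ASF1, a histone chaperone of replicating chromatin, had 31.2%, 3.10%, 39.8% and 28.7%.

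Spindle pole and kinetochore genes had means of 22.9%, 17.1%, 21.4% and 14.6%. On wild type, 5 members were at least 25 points lower and 1 higher (DSN1), and in the sen1 background 4 were lower and none higher. This direction was not kept with only the higher-scoring 50% of each list, where the means were 6.78%, 8.68%, 5.695% and 5.915%, with 2 members at least 25 points higher and 1 lower on wild type and none either way on sen1. The list of 72 replication and checkpoint genes had means of 15.8%, 13.1%, 20.8% and 15.6%, with 4 members at least 25 points lower in each background and none higher. The shares over all genes were 2.33% and 3.47% lower. Of its members in the sen1 pair, 32 were lower by any amount and 6 higher, beside 1434 and 770 of all genes. Some cover in any list was present at 39 of the 72 members and 2969 of all 6002 genes. At equal covered length 3 were at least 25 points lower on sen1, and 28 were lower by any amount and 7 higher. With only the higher-scoring 50% of each list, 2 were at least 25 points lower and 1 higher on wild type. By that setting 5 were lower and none higher on sen1. The replication list shares members with the late G1 and S list, among them POL1, POL12 and CTF4, so the lists are not independent. Genes of later phases had little cover in all lists: the 13 G2/M genes had means of 0.770%, 1.31%, 4.86% and 4.29%, and the 13 M/G1 genes of 1.65%, 0%, 10.3% and 9.55%. The 45 to 50 min window was the same for all strains, the position of each culture within S phase is not among the data used here, and its part in these differences was not tested. Many of these genes stood near the bottom of the ranking. With only the higher-scoring 50% of each list, 12 genes were at least 25 points lower in both backgrounds and 3 of them were among the 21.

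Other lists were read in the same way. The 9 genes attenuated by Nrd1, Nab3 and Sen1 had means of 61.1%, 61.0%, 87.2% and 89.95%. IMD2, whose upstream terminator depends on Sen1, had 19.3%, 21.2%, 100% and 100%. URA8 had 30.4%, 27.6%, 98.9% and 96.3%. At these genes the wide cover of sen1 was present in the double mutant too. The 16 DNA damage response genes had means of 13.2%, 16.8%, 15.6% and 17.9%, with 2 members at least 25 points higher in the wild-type background (none with only the higher-scoring 50%). Of these, RNR2, the small subunit of ribonucleotide reductase, had 0%, 26.3%, 50.7% and 69.0%. Glycolysis, galactose and transcription termination genes each had means within 3 points across both pairs, and heat-shock genes within 3 points as well, though with only the higher-scoring 50% heat-shock genes had 38.3% in wild type and 32.2% in rrm3.

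The gains of sen1 were followed into the double mutant. In sen1, 113 genes (1.88%) had at least 50% cover where wild type had 0%. Taking for each gene only the sen1 peak with the largest share of it, they lay under 107 separate peaks. In sen1rrm3, 83 of the 113 genes had less cover than in sen1, 17 the same and 13 more. Of the 113, 41 (36.3%, exact 95% interval 27.5 to 45.9) were at least 25 points lower, 19 of these at 0%, and 59 had at least 50%. Their mean cover was 76.0% in sen1 and 53.5% in sen1rrm3, and the median difference was -15.1 points. In the rrm3 list 99 of the 113 were at 0%.

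Since the sen1 list itself chose these genes, some fall is built into the choice, and 2 comparisons were made. The mirror set held the 79 genes (1.32%) with at least 50% in sen1rrm3 and 0% in rrm3. Of these, 3 (3.80%, interval 0.790 to 10.7) were at least 25 points lower in sen1, and 70 had at least 50% there. Trimmed to equal covered length, the shares were 36 of 104 (34.6%) and 11 of 80 (13.8%). The difference between the directions was thus smaller with equal lists and of the same sign. Of the 1121 genes with at least 50% in both wild type and sen1, 51 (4.55%) were at least 25 points lower in sen1rrm3. In all, 49 genes (0.816%) were gained by both rules.

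**Figure D4:**
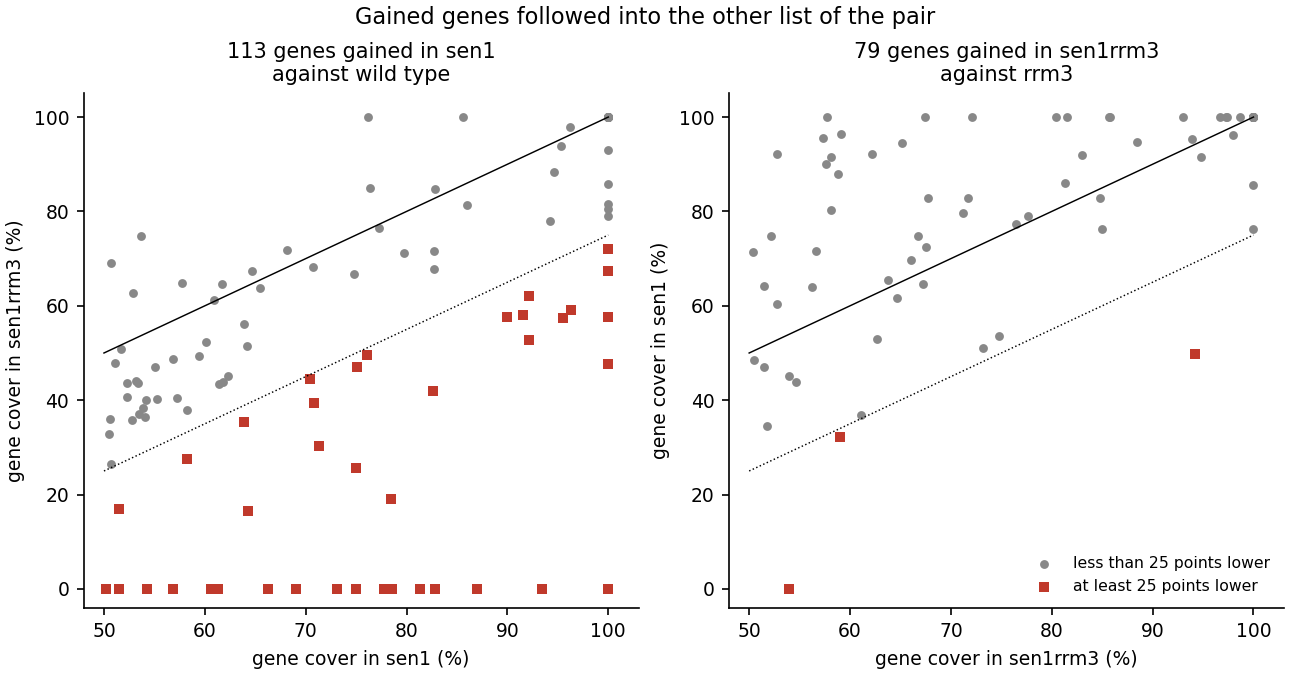
Left, the 113 sen1-type gains, with cover in sen1 on the horizontal axis and in sen1rrm3 on the vertical axis, both in % of the gene body. Right, the 79 genes gained in sen1rrm3 against rrm3, with the axes exchanged. Red squares, 41 on the left and 3 on the right, lie at least 25 points below the solid line of equal cover (dotted line).

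Most of the reduced gains, 34 of 41, lay under sen1 peaks that touched neither a wild-type peak nor an RNA gene. Such peaks carried 78 of the 113 genes, and the 34 reduced ones were 43.6% of these. Where the sen1 peak also touched a wild-type peak, 4 of 17 (23.5%) were reduced. Where it also covered a snoRNA or other RNA gene, 3 of 18 (16.7%) were. The 3 classes differed in rank and width as well: the median score percentile was 32.2, 68.7 and 95.6, and the median width 736, 1582 and 3748 bp. The part of rank and width in this order was not tested.

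RDS1, which encodes a zinc-cluster transcription factor, had 60.6% cover in sen1 and 0% in the other 3 lists. The sen1 peak with the largest share of RDS1, at chromosome III 311522 to 312523, gave only a part of that cover. CTM1, a methyltransferase of cytochrome c, had 54.3% in sen1, and PRY1, a secreted sterol-binding protein gene, 87.0%. MEI4, a meiotic gene of double-strand break formation, had 60.6% in sen1 and NDJ1, a meiotic telomere protein gene, 100%. RDS1, CTM1, PRY1 and MEI4 were at 0% in the double mutant, and NDJ1 was at 47.6%. TIP1, a cell wall mannoprotein gene, had 82.8% in sen1 and 0% in sen1rrm3. PHD1, a regulator of filamentous growth, had 75.0% and 25.7%, and APE1, a vacuolar aminopeptidase, 71.3% and 30.2%. NMT1, the N-myristoyltransferase gene, had 92.2% and 52.8% and shares its peak with NCW2. All of these had 0% in wild type and rrm3.

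Gains next to snoRNA genes were seldom reduced. RGT1, a repressor of glucose transporters beside SNR69, GAL11, a Mediator subunit beside SNR81, and MAD1, a spindle checkpoint gene beside SNR10, had 100% cover in both sen1 and sen1rrm3. STP22 beside SNR43, STR2 beside SNR3 and UBX6 beside SNR60 did too. Exceptions were SNA2 beside SNR84, with 75.0% and 0%, PRP3 beside SNR13, with 76.1% and 49.7%, and ADD37 beside SNR83, with 75.0% and 47.1%. A few gains were larger in the double mutant: RNR2 had 50.7% and 69.0%, AYR1 53.7% and 74.7%, and ADE12, an attenuated gene of purine synthesis, 85.6% and 100%.

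The tRNA genes are known obstacles that Rrm3 helps forks to pass, and they are transcribed by RNA polymerase III. Of the 275 tRNA genes, each widened by 100 bp on either side, 70 were touched by a peak in wild type (25.5%, interval 20.4 to 31.03) and 76 in rrm3 (27.6%, interval 22.4 to 33.3). In sen1 141 were touched (51.3%, interval 45.2 to 57.3) and in sen1rrm3 118 (42.9%, interval 37.0 to 49.0). Mean cover of the tRNA gene bodies was 16.5%, 16.6%, 44.2% and 31.7%. Fully covered were 34, 34, 93 and 65 genes. The wild-type pair was thus nearly level, and the sen1 pair was not.

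By the 25-point rule 9 tRNA genes were higher (3.27%) and 10 lower (3.64%) with rrm3 in the wild-type background. On sen1, 1 was higher (0.364%) and 50 were lower (18.2%), and with lists of equal covered length 48 were lower. Of the 73 tRNA genes with a peak in sen1 but none in wild type, 22 (30.1%, interval 19.9 to 42.0) had no peak in sen1rrm3. Of the 45 with a peak in sen1rrm3 but none in rrm3, all had a peak in sen1, and the interval for a share of 0 reaches to 7.87%. With lists of equal covered length these counts were 19 of 70 and 0 of 45. Of the 68 touched in both wild type and sen1, 3 had no peak in sen1rrm3. The 22 genes had narrower and lower-ranked sen1 peaks, with a median width of 213 bp and a median score percentile of 42.1, against 320 bp and 74.4 for the 51 that had a peak in sen1rrm3.

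IMT1, an initiator methionine tRNA gene, was covered in full in sen1 and at 0% in the other 3 lists. SUP54 had the same values, and SUP51 had 85.7% in sen1 and 0% elsewhere. IMT2, a sister gene of IMT1, had 100% in sen1 and 66.7% in sen1rrm3 with 0% in wild type and rrm3. TRN1, SUP6 and TRR4 had 100% in both sen1 and sen1rrm3 and 0% in the others. In the wild-type background TGA1 stood out with 100% in wild type and 0% in rrm3, while both sen1 and sen1rrm3 had 100%. The rrm3 list still held a peak within 100 bp of TGA1, so by the rule for touched genes it was not lost. Grouping by amino acid was not analysed here.

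The reach of polymerase past snoRNA genes is the textbook sign of altered Sen1. It was measured from the 3′ end of each gene to where its peak stops, for the 64 snoRNA genes that lie outside coding genes and had a peak in all 4 lists. Clustered genes share a peak end, up to 7 genes on the same end, so the 64 genes stand for 52 separate ends in the wild-type pair and 51 in the sen1 pair. With rrm3 in the wild-type background the median change was 5 bp over genes and 1.5 bp over separate ends, and 48 of the 52 ends moved by less than 100 bp. In this pair 1 end was nearer by at least 500 bp (1.56% of the 64 genes) and 1 further (1.56% of the 64 genes). SNR84 had 1477 bp without and 542 bp with rrm3, and SNR80 550 and 1372 bp.

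In the sen1 background the median change was -45.5 bp over genes, with a range from -1102 to 522 bp, and -52.0 bp over separate ends. Of the 51 ends, 38 were nearer the gene in sen1rrm3 and 13 further away. By at least 500 bp, 8 were nearer (12.5% of the 64 genes) and 1 further (1.56%), and none of these is shared by genes. At SNR35 the distance was 1302, 1291, 3289 and 2187 bp. SNR86 had 2380, 2350, 3539 and 2716 bp, and SNR58 had 253, 260, 2216 and 1407 bp. SNR43 had 422, 420, 3939 and 3184 bp. SNR46 had 2419 bp in sen1 and 1756 bp in sen1rrm3, and SNR37 had 4488 and 3871 bp. At SNR49 the distance of 2735 bp in sen1 was 2172 bp in sen1rrm3, the same as in wild type. SNR66 had 2989 bp in sen1 and 3511 bp in sen1rrm3. Of the 55 genes whose peak reached at least 500 bp further in sen1 than in wild type, the double mutant held a median of 97.9% of that added reach, 36 held at least 90% and 3 under 50%. Over their 43 separate ends the median was 97.7%, with 27 at 90% or more and 3 under 50%.

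**Figure D5:**
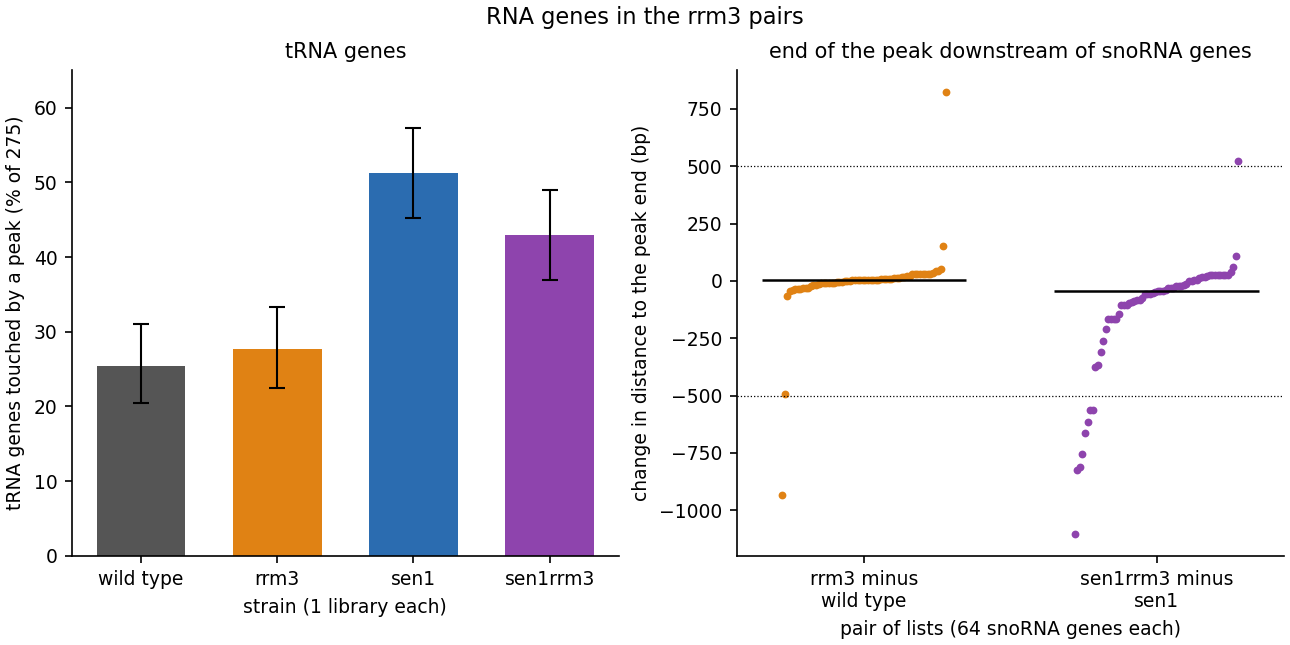
Left, the share of the 275 tRNA genes touched by an Rpb1 peak in each strain, with exact 95% binomial intervals that cover counting error only. Right, the change in distance from the snoRNA gene to the end of its peak in base pairs for 64 genes in each pair, sorted by size, with the median as a bar (5 and -45.5 bp) and dotted lines at 500 bp.

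Cover was also read at other sites where Rrm3 is known to act, beside 18.9%, 18.9%, 20.2% and 19.4% for the whole nuclear genome. Differences at these sites were not tested. In the outer 20 kb of the chromosomes, peaks covered 2.89%, 2.71%, 3.84% and 3.14% of base pairs. Within 10 kb of the intervals that hold the centromeres, cover was 17.7%, 19.7%, 18.2% and 18.5%. The silent mating-type genes had 0% in every list. The ribosomal RNA genes had 0% in wild type and rrm3, 2.11% in sen1 and 1.92% in sen1rrm3. These repeats are near-identical copies, so how reads were shared among them could set those values.

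A second assay in the same strains and phase mapped biotinylated trimethylpsoralen (bTMP), which marks under-wound DNA, and the rule for genes did not use it. Over all genes the mean bTMP cover was 20.7%, 23.9%, 27.7% and 24.9%. With rrm3, 2344 of all genes were higher and 1815 lower in the wild-type background, and 1816 and 2116 in the sen1 background. The 8 genes gained with rrm3 in the wild-type background averaged 24.3% without and 55.8% with rrm3, and the 13 lost 35.7% and 60.8%. Of the 8, 5 were higher in bTMP cover with rrm3 and 2 lower, and of the 13, 6 were higher and 1 lower. The 21 genes lower in both backgrounds had a lower mean with rrm3, 37.0% in wild type and 30.8% in rrm3. By count they were near level, with 6 higher and 8 lower. The 13 genes gained with rrm3 in the sen1 background had 39.3% in sen1 and 21.5% in sen1rrm3, and the 37 lost 28.1% and 22.9%. Of these 13, 3 were higher in sen1rrm3 and 6 lower, and of the 37, 9 were higher and 9 lower. The 41 reduced sen1 gains had 35.9% in sen1 and 21.2% in sen1rrm3, and the 72 others 37.1% and 29.9%. By count the larger fall in the mean was not matched. Of the 41, 14 were lower in sen1rrm3 and 11 higher, and of the 72, 31 were lower and 17 higher. The bTMP lists differ in length, with 2678, 3342, 3182 and 3497 peaks.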

How the data were processed

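The authors deposited 1 peak list for each library, with a score for each peak whose meaning is not stated, and this score served only for ranks inside each list. Bowtie2, Picard, SAMtools and deepTools are named without versions, per the submitters' processing notes. The peak caller, its threshold and the genome build are unnamed, not given in the sources used here, and read depth is unknown. Per the labels' protocols, cells were cross-linked with 1% formaldehyde for 30 min and chromatin was sheared to 100 to 150 bp.

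Peak positions were laid over RefSeq genes (assembly R64). As a check of the build, the 137 ribosomal protein genes had 99.4% of their base pairs under wild-type peaks in place, and 76.0% and 82.55% when moved by 450 bp either way. Printed coordinates come from the deposited peaks and count from 1. Mitochondrial peaks were left out. Strand was read from systematic names.

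Gained means at least 50% gene cover in the list with rrm3 and 0% in its partner, and lost the reverse. Changes of at least 25 percentage points were counted too. The members and lists were chosen with earlier results of these data known, and the late G1 and S, spindle and respiration lists were added after their values were seen. With 1 library in each group there is no test, and alternatives were the higher-scoring 50% of each list, equal covered length within a pair, joining of peaks within 300 bp, other cover thresholds, tRNA gene bodies alone, and 250 or 1000 bp for snoRNA ends. Named genes are those with the most base pairs changed per background and direction, list members gained or lost, genes changed in both backgrounds, the sen1 gains with the largest and smallest fall, snoRNA genes with the largest moves and the strain loci. Genes named by the 25-point rule were chosen after their values were seen. A gene that is included in the counts is not reported here. The cover script was tested on simulated peaks. Python 3.11.15, numpy 2.4.6, pandas 2.3.3, scipy 1.17.1 and matplotlib 3.10.9 were used.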

Additional observations from a re-analysis of the deposited data

Results flagged for a closer look

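At 18 genes the rrm3 difference was at least 25 points in each background and of opposite sign. With 1 library in each strain the difference between backgrounds was not tested. The value given for each gene is the difference in the sen1 background minus that in the wild-type background, in percentage points of gene cover.

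Lower with rrm3 in the wild-type background and higher in the sen1 background were 6 genes, or 0.1000% of all genes. The value was 106.5 for ZRT1, the zinc transporter gene, which had a cover of 79.8%, 0%, 32.2% and 59.0% in wild type, rrm3, sen1 and sen1rrm3, the order kept below. It was 100.6 for COX9, a subunit of cytochrome c oxidase, and 86.2 for YLR257W, which had 41.8%, 0%, 49.8% and 94.2%. RPC82, a subunit of RNA polymerase III, stood at 66.5, RPN8, of the proteasome lid, at 61.8, and DOT6, a repressor of ribosome biogenesis genes, at 57.8.

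Higher with rrm3 in the wild-type background and lower in the sen1 background were 12 genes, or 0.200% of all genes. OST4, a subunit of oligosaccharyltransferase, had the largest value of these, -120.7, with 22.5%, 100%, 49.5% and 6.31%. IES5 stood at -109.0. SMX2, a core spliceosomal protein gene, stood at -103.8, with 70.1%, 96.6%, 77.4% and 0%. DUT1, the dUTPase gene, stood at -98.6, with 45.5%, 78.6%, 77.5% and 11.9%. TAD2, a tRNA deaminase subunit, stood at -82.1, ERP2, a p24 family gene, at -78.1, and PAM18, of the mitochondrial import motor, at -74.0. YEH1, a sterol ester hydrolase, stood at -72.8, TOM5, of the outer-membrane translocase, at -72.5, and SBH1, of the translocon, at -65.1. YPR159C-A stood at -62.8 and NPC2, a sterol transfer protein gene, at -57.8. Many of these genes are short, so a small shift of a peak edge makes a large difference in percent: OST4 is 111 bp long, TOM5 153 bp and COX9 180 bp.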

How the results depend on the processing

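With only the higher-scoring 50% of each list, genes gained and lost numbered 44 and 75 in the wild-type background and 52 and 82 in the sen1 background, with 7 changed the same way in both. By that setting 65 sen1 gains were reduced and 94 held at least 50%, 16 of the mirror set were lower, 12 genes were lower in both backgrounds, and 43 and 48 tRNA genes were touched in wild type and rrm3. Unpartnered peaks numbered 100, 101, 133 and 69 in wild type, rrm3, sen1 and sen1rrm3, and lists with means over 5 points apart 5 and 3, against 8 and 5 in the report's setting. With equal covered length, 37 genes were gained in the sen1 background, 1 changed the same way in both, 11 of the mirror set were lower, 137 genes were higher in the sen1 background and 10 in both, and unpartnered peaks numbered 135 in sen1 and 280 in sen1rrm3. At 80% against at most 20%, genes gained and lost were 4 and 5 in the wild-type background and 5 and 7 in the sen1 background, none in both, and 20 of 69 sen1 gains were reduced. At 25% against 0% they were 24 and 66, and 31 and 102, with 8 in both, 81 of 215 sen1 gains reduced and 6 of 160 lower in the mirror set. With peaks within 300 bp joined, the peak end moved at 8 snoRNA genes in the wild-type background. These counts are of genes, and clustered genes can share an end. At 1000 bp the end of 1 gene moved nearer in the sen1 background and 0 moved in the wild-type background. The other 83 recomputed counts were within 1.5 times of their value, among them the sen1-type tRNA genes without a peak in sen1rrm3 (19 to 27) and the tRNA genes with less cover there (43 to 50). Counts across score settings do not name the same genes: 10 of the 41 reduced sen1 gains were among the 65. Except for the trimming itself, the cause of these shifts was not tested. No paired analysis was possible because the labels carry no replicate numbers and each group has 1 library. With read depth unknown, a peak missing from a list may be a weak signal under the caller's threshold.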

Other observations

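Iron genes had less cover in sen1 than in wild type and the least in the double mutant. Over the 25 genes of the iron list the mean covers were 35.5%, 31.1%, 20.6% and 14.1% in wild type, rrm3, sen1 and sen1rrm3, with 2 members at least 25 points lower with rrm3 in each background and none higher, where 2.33% and 3.47% of all genes were lower. At equal covered length 1 member was lower on sen1. AFT1, the activator of the iron regulon, had 100%, 100%, 51.7% and 12.01%. TIS11, an RNA-binding protein of iron deprivation, had 77.5%, 63.6%, 74.2% and 0%. In the wild-type background the 2 lower members were CCC2, a copper transporter needed for iron uptake, with 34.0% and 0%, and FTH1, a vacuolar iron transporter, with 40.8% and 8.65%. Both were at 0% in sen1 and sen1rrm3.

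For genes of protein entry into the endoplasmic reticulum, the direction in the wild-type background turned with the score threshold. Over the 11 signal peptidase and translocon genes the means were 36.1%, 45.3%, 58.6% and 43.2%. In the wild-type background 6 members were higher by any amount and none lower, and in the sen1 background 1 was higher and 6 lower. With only the higher-scoring 50% of each list the means were 30.7% and 20.7%, and 21.2% and 12.5%, lower with rrm3 in both backgrounds. SPC2, a signal peptidase subunit, had 78.0% in sen1 and 0% in the other 3 lists, while SPC1, of the same complex, had 66.3% in rrm3 and 0% in the others. SEC72 had 7.04%, 9.28%, 100% and 63.2%. The difference between backgrounds was not tested. At single genes outside these lists, JIP3 had 100%, 100%, 95.2% and 0%, URA6, a kinase of pyrimidine synthesis, 85.8%, 81.8%, 61.1% and 0%, and FOL2, of folate synthesis, 56.8%, 62.7%, 51.6% and 0%, so that the double mutant alone lacked cover at these 3.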
